A study of Homo sapiens with 8 samples.

Results

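The genes described here are a module of chemokines, cytokines and regulators of the transcription factor NF-kB, given as a list of 38 symbols. A gene was measured where a probe set of the array carried its symbol alone, and the brightest such probe set by its mean over the 8 arrays stood for the gene. This gave 36 of the 38 genes, with 74 probe sets among them, out of 18244 genes on the array. BIRC3 and CSF2 had no such probe set and are not analysed here.

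NF-kB is a family of dimers built from REL, RELA, RELB and the products of NFKB1 and NFKB2. In resting cells the dimers are held inactive by inhibitors of the IkB family, and signals from cytokine and Toll-like receptors release them to bind short DNA sequences called kB sites. Among the genes they switch on are chemokines, which draw leukocytes along a gradient, and cytokines such as interleukin 6. They also switch on their own inhibitors, NFKBIA and TNFAIP3, which end the response. In lung epithelium and lung tumours these secreted proteins are the signals by which epithelial cells recruit neutrophils, T cells and macrophages.

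RNA was measured on 1-colour arrays in PC9 and A549, both long-established lines from human lung adenocarcinomas, grown alone in culture with fetal bovine serum, A549 in F-12K and PC9 in Dulbecco's modified Eagle medium. Cells of each line were infected with retrovirus made in 293FT packaging cells that carried either EN2, an engrailed homeobox transcription factor, or the Neo vector alone. The 4 groups were thus A549 with EN2, A549 with Neo, PC9 with EN2 and PC9 with Neo, and the Neo groups, called NC, are the controls. Each group had 2 arrays, numbered as replicates. All groups, controls included, had been through infection and selection with the drug that the labels spell genemycin, and the labels do not say whether the selected cells were pools or clones. Nor do they state that replicate arrays came from separate cultures, so the p-values measure only the spread between these arrays, which may be technical.

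Values are log2 expression. Arrays of the same group correlated at 0.9971 to 0.9973 across probe sets. EN2 itself read 7.71 and 7.62 on the A549 EN2 arrays against 6.48 and 6.57 on the NC arrays, and 6.24 and 6.39 against 5.86 and 5.78 in PC9, where the change did not pass the test (limma adjusted p = 0.0801). The 18S rRNA control, a measure of ribosomal RNA in the labelled sample, separated the A549 groups. It read 11.66 and 12.12 on the EN2 arrays and 12.44 and 12.74 on the NC arrays of A549, and 6.05 to 6.10 on the arrays of PC9. The background of a line was taken as the 95th percentile of the 100 spike-in probe sets, 4.42 in A549 and 3.94 in PC9. The 6 epithelial markers examined were above background in both lines. PTPRC, the pan-leukocyte marker CD45, was below it on every array.

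Several of the chemokine genes are neighbours and near copies of each other. CXCL8, CXCL6, CXCL1, CXCL5, CXCL3 and CXCL2 start within a single cluster on chromosome 4, from 73.741 to 74.099 megabases, and CXCL10 and CXCL11 start farther along the chromosome, at 76.023 and 76.036 megabases (RefSeq, GRCh38.p14). RefSeq promoter windows were found for 26 of the 36 measured genes, as 34 windows since some genes have several starts. The 250 bases before each start were searched on both strands for a broad kB motif, GGGANNNNCC, and a stricter one, GGAANTTCC, which can overlap each other. The broad motif was present in 67.6% of the member windows and in 22.6% of all 35116 windows. The stricter motif was present in 38.2% of the member windows and in 0.826% of all windows. The genes were listed because they are NF-kB regulators and targets, so these shares describe the list and do not bear on the arrays. A match is a description of the letters and does not show that a factor binds there.

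The stretches below carry the kB motif of 5 cluster chemokines and of LCN2, the one member that passed as lower with EN2 in A549. Each has 120 bases, read 5′ to 3′ on the strand of the gene. Those of the chemokines end at the base before the start of transcription, and that of LCN2 runs from 210 to 91 bases before it. Capitals mark letters that match either kB motif.
CXCL1: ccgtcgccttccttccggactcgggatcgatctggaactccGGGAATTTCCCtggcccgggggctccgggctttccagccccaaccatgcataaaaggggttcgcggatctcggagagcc
CXCL2: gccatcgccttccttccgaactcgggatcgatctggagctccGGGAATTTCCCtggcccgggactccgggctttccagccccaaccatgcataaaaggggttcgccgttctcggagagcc
CXCL3: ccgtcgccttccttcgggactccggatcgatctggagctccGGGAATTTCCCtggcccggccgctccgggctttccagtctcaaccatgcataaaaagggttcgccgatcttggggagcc
CXCL5: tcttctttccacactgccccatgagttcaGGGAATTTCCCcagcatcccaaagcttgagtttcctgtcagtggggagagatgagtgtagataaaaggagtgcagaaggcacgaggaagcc
CXCL6: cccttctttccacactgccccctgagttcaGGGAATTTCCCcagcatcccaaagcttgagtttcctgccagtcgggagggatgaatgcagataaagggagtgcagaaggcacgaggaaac
LCN2: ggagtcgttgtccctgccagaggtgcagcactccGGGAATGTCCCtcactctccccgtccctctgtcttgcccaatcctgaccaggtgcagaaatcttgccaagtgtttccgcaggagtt

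Their positions are chr4:73869273-73869392 on the plus strand for CXCL1, chr4:74099196-74099315 on the minus strand for CXCL2 and chr4:74038690-74038809 on the minus strand for CXCL3. CXCL5 lies at chr4:73998678-73998797 on the minus strand, CXCL6 at chr4:73836558-73836677 on the plus strand and LCN2 at chr9:128149243-128149362 on the plus strand. The 5 chemokines share the same 11 letters, GGGAATTTCCC, which begin 79 bases before the start in CXCL1 and CXCL3, 78 in CXCL2, 91 in CXCL5 and 90 in CXCL6. Over the whole 250 bases CXCL5 and CXCL6 were 85.3% identical, CXCL1 and CXCL3 81.4%, CXCL2 and CXCL3 73.3% and CXCL1 and CXCL2 68.0%. The mature transcripts of CXCL1, CXCL2 and CXCL3 are also alike. An additional probe set annotated to both CXCL1 and CXCL2 exists, so values of these 3 genes may hold signal from each other. CXCL10, which interferon also induces, was the only one of the 26 genes searched with a match to the interferon-response motif GAAANNGAAA, which was present in 2.94% of the member windows and 3.02% of all windows. The AP-1 motif TGANTCA was present in the windows of CXCL8, CXCL11, IL1A, IL11 and LCN2, and in 6.57% of all windows.

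The first comparison set the NC arrays of A549 against those of PC9, to show what the module looked like without EN2. A549 expressed the neutrophil chemokines CXCL5, CXCL3 and CXCL2 and the T cell chemokine CCL5 far above PC9, whereas PC9 expressed the antibacterial protein gene LCN2 and the acute-phase gene SAA1 far above A549. Of the 36 genes, 28 were higher and 7 lower in A549 at a limma adjusted p below 0.05, beside 46.0% and 29.7% of all genes (75.8% in either direction). The median difference of the 36 was 1.31 and that of all genes 0.17. It is not stated that the lines were normalised together, so the scale between them is uncertain by an amount not known here.

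CXCL5, which attracts neutrophils, read 12.53 and 12.60 on the A549 NC arrays and 2.77 and 2.78 on those of PC9. The A549 arrays were near the top of the range and the PC9 arrays below background. The measured difference was 9.79 ± 0.087 SE (limma adjusted p = 3.22e-12), and against the PC9 background it was at least 8.63. CXCL6, in the same cluster and with a promoter window 85.3% identical to that of CXCL5, was below background on every array of both lines (2.99 to 3.27 in A549, 2.77 to 2.93 in PC9). CCL5, which attracts T cells, read 12.69 and 12.68 in A549 NC and 5.79 and 5.52 in PC9 NC, a difference of 7.03 ± 0.095 SE (limma adjusted p = 2.71e-11). Both lines were above background for this gene.

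CXCL3 read 9.96 and 9.29 in A549 NC and 3.71 and 3.83 in PC9 NC, where it was below background. Its difference was 5.85 as measured and at least 5.68 against the background. CXCL2 was present in both lines, at 11.69 and 10.95 in A549 NC and 7.74 and 7.51 in PC9 NC (difference 3.70 ± 0.21 SE, limma adjusted p = 1.88e-07). CXCL1 and CXCL8, the other neutrophil chemokines of the cluster, were also well expressed in PC9, at 8.71 and 9.18 and at 10.18 and 10.14. Their differences between the lines were 2.18 and 1.62. CXCL11, a ligand of the T cell receptor CXCR3, and CCL2, which attracts monocytes, were above background in A549 alone. Their differences were at least 2.46 and 2.47 against the PC9 background.

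LCN2, the iron-trapping protein lipocalin 2 of epithelia and neutrophils, ran the other way. It read 7.84 and 7.37 in A549 NC and 12.80 and 12.97 in PC9 NC (difference −5.29 ± 0.17 SE, limma adjusted p = 4.02e-09). SAA1 was below background in A549, at 3.19 and 3.09, and read 6.44 and 7.79 in PC9 NC. The PC9 arrays of SAA1 were thus far apart, and the difference was at least 2.69 against the A549 background. SAA1 is a near copy of SAA2, and 2 additional probe sets are annotated to both. The other genes lower in A549 were CXCL16, a membrane-bound chemokine (−1.59), ICAM1, the adhesion molecule that leukocytes grip (−1.34), CCL28, a mucosal chemokine (−0.87), IL1B (−0.79) and TNFAIP2 (−0.78). CCL28 was below background in A549, so its difference was at least 0.37 in size. TNFAIP2 was lower on its brightest probe set alone. Its other probe sets were higher on both A549 NC arrays than on either PC9 NC array. IL1A, whose product is a membrane-bound or released form of interleukin 1, was the single member that did not pass (0.47, limma adjusted p = 0.0528).

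By role, 11 of 13 chemokines were higher and 2 lower in A549 NC, with a median of 2.48. Of 10 interleukins and growth factors, 8 were higher and 1 lower (median 1.19). The 9 subunits and regulators of NF-kB were higher in A549 in all cases, from NFKB2 at 0.28 to IRAK2, a kinase of the interleukin 1 receptor, at 2.81. The remaining products, TNFAIP2, LCN2, SAA1 and ICAM1, were all lower, TNFAIP2 on its brightest probe set alone. With the mean of probe sets, 29 members were higher and 6 lower in A549 NC. Of the 36 genes, 28 were above background in both lines, CXCL3, CXCL5, CXCL11 and CCL2 in A549 alone, CCL28 and SAA1 in PC9 alone, and CXCL6 and IL33 in neither.

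**Figure D1:**
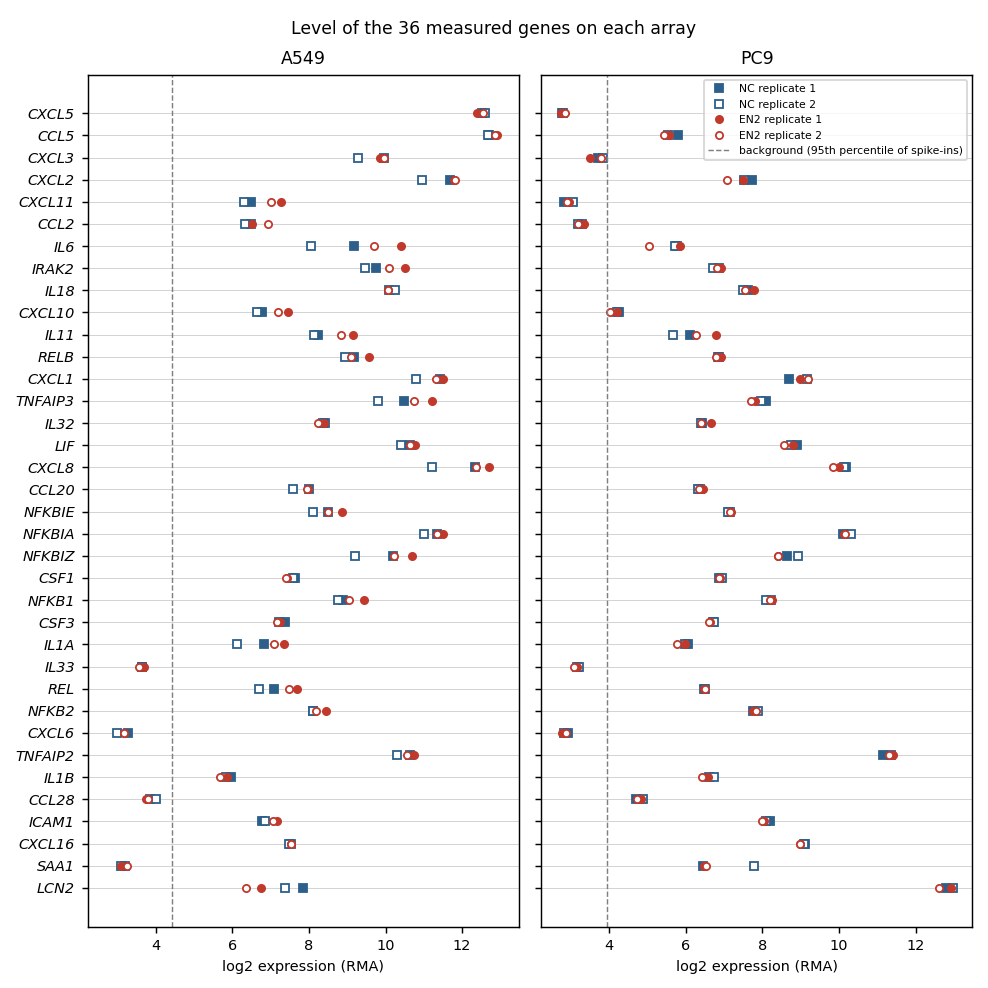
Log2 expression (horizontal axes) of the 36 measured genes, ordered by the difference between the NC arrays of A549 and PC9, on each array of A549 (left) and PC9 (right). Squares are NC, circles EN2, filled symbols replicate 1 and open symbols replicate 2, and the dashed line is the spike-in background (4.42 and 3.94); CXCL5 lies above 12 on every A549 array and below the background on every PC9 array, and LCN2 runs the other way.

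The second comparison set EN2 against NC in A549. Among the 36 genes, 4 were called higher and 1 lower at a limma adjusted p below 0.05. CXCL10 and CXCL11, the CXCR3 ligands, REL, which encodes the c-Rel subunit, and IRAK2 rose 1.54-fold to 1.66-fold, and LCN2 fell 2.06-fold. The 5 called genes are 13.9% of the members, beside 2.72% of all genes called in either direction (1.57% higher and 1.15% lower). At an unadjusted p below 0.05 there were 17 of 36, beside 17.4% of all genes. Both EN2 arrays lay above both NC arrays in 19 of 36 genes, beside 24.1% of all genes, and below them in 4, beside 23.5%. The change was above 0 in 27 of 36 genes, beside 49.3% of all genes. TNFAIP2 is counted there on its brightest probe set alone (0.19), and its others gave −0.31 to −0.21. Among the 22 members with several probe sets, 5 had changes of both signs in A549 and 8 in PC9. The median change of the members was 0.26, and that of all genes −0.0015. In bulk RNA a change in the number of cells that express a gene and a change in RNA per cell cannot be told apart. The 18S rRNA signal was lower on the EN2 arrays, and changes at a given signal are described after the genes.

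CXCL10 read 7.46 and 7.18 on the EN2 arrays and 6.76 and 6.64 on the NC arrays. CXCL11 read 7.26 and 7.0 with EN2 and 6.49 and 6.31 with NC. For both genes the EN2 arrays lay above the NC arrays without overlap. The changes were 0.62 ± 0.11 SE for CXCL10 (limma adjusted p = 0.0232) and 0.73 ± 0.12 SE for CXCL11 (limma adjusted p = 0.0156). The 3 probe sets of CXCL11 gave changes of 0.73 to 0.86.

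REL read 7.68 and 7.48 with EN2 and 7.08 and 6.70 with NC, a change of 0.69 ± 0.13 SE (limma adjusted p = 0.0227), and its second probe set gave 0.71. IRAK2 read 10.51 and 10.10 with EN2 and 9.74 and 9.46 with NC, a change of 0.70 ± 0.14 SE (limma adjusted p = 0.0315). Neither gene had overlapping groups. The dimmer probe set of IRAK2 gave 0.34, and with the mean of its probe sets IRAK2 was not called. Its call also ended when any array of PC9 was left out, each of which takes a degree of freedom from the shared estimate of spread.

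LCN2 was the one member called lower. It read 6.76 and 6.36 with EN2 and 7.84 and 7.37 with NC, so both EN2 arrays were below both NC arrays. The change was −1.04 ± 0.17 SE (limma adjusted p = 0.016). Its lowest array was EN2 replicate 2, whereas in 26 of the 36 members the lowest of the 4 arrays was NC replicate 2, beside 30.3% of all genes.

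The largest change of the module in A549, that of IL6, did not pass. IL6, the inflammatory cytokine that signals through gp130, read 10.41 and 9.71 with EN2 and 9.17 and 8.06 with NC. The groups did not overlap, but the arrays of each were far apart. The change was 1.44 ± 0.36 SE (limma adjusted p = 0.0719), and the dimmer of its 2 probe sets gave 0.23. IL11, a cytokine of the same receptor family, read 9.15 and 8.83 against 8.25 and 8.13, with no overlap (0.80 ± 0.19 SE, limma adjusted p = 0.0617). IL1A read 7.36 and 7.09 against 6.84 and 6.13, also with no overlap (0.74 ± 0.20 SE, limma adjusted p = 0.0871).

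CXCL8, the principal neutrophil chemokine, read 12.70 and 12.35 with EN2 and 12.34 and 11.21 with NC. The lower EN2 array and the higher NC array were almost equal, and the change of 0.75 ± 0.28 SE did not pass (limma adjusted p = 0.201). On its other probe sets the groups overlapped, with EN2 replicate 2 at 11.20 and 11.16 and NC replicate 1 at 11.33 and 11.29. TNFAIP3, the deubiquitinating enzyme A20 that shuts NF-kB signalling off, read 11.20 and 10.73 against 10.49 and 9.79 (0.82 ± 0.21 SE, limma adjusted p = 0.0721). NFKBIZ, a nuclear IkB protein that IL6 and LCN2 transcription can require, read 10.70 and 10.22 against 10.20 and 9.21 (0.76 ± 0.27 SE, limma adjusted p = 0.172). In these 3 genes the NC array of replicate 2 was well below the other 3 arrays.

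In all, 10 members had a change of at least 0.5 upward, beside 1.68% of all genes, and 1 downward, beside 0.943%. By role, the changes of all 9 subunits and regulators were above 0, from 0.21 for NFKB2 to 0.82 for TNFAIP3, with a median of 0.41, and 2 of 9 were called. In a fit that includes the 18S rRNA signal, described below, 7 of the 9 were below 0 and the median was −0.11. NFKBIA, the classical inhibitor IkB alpha, read 11.49 and 11.35 against 11.33 and 10.99 and was not called (0.26, limma adjusted p = 0.261). Of the 13 chemokines, 2 were called, 11 changes were above 0, and the median was 0.29 (−0.0056 in that fit). The 10 interleukins and growth factors had a median of −0.045 with none called, and 6 of them had changes below 0.

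The neutrophil chemokines of the cluster with the shared kB letters shown above did not pass in A549. CXCL1 read 11.50 and 11.31 with EN2 and 11.42 and 10.81 with NC (0.29), and CXCL2 read 11.77 and 11.80 against 11.69 and 10.95 (0.47). CXCL3 read 9.85 and 9.97 against 9.96 and 9.29 (0.29), and CXCL5 read 12.39 and 12.55 against 12.53 and 12.60 (−0.095). The EN2 and NC arrays overlapped in CXCL1, CXCL3 and CXCL5 but not in CXCL2. In CXCL1, CXCL2 and CXCL3 the NC array of replicate 2 was the lowest by a wide margin, while in CXCL5 it was the highest. The limma adjusted p of the 4 genes ran from 0.299 to 0.663.

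**Figure D2:**
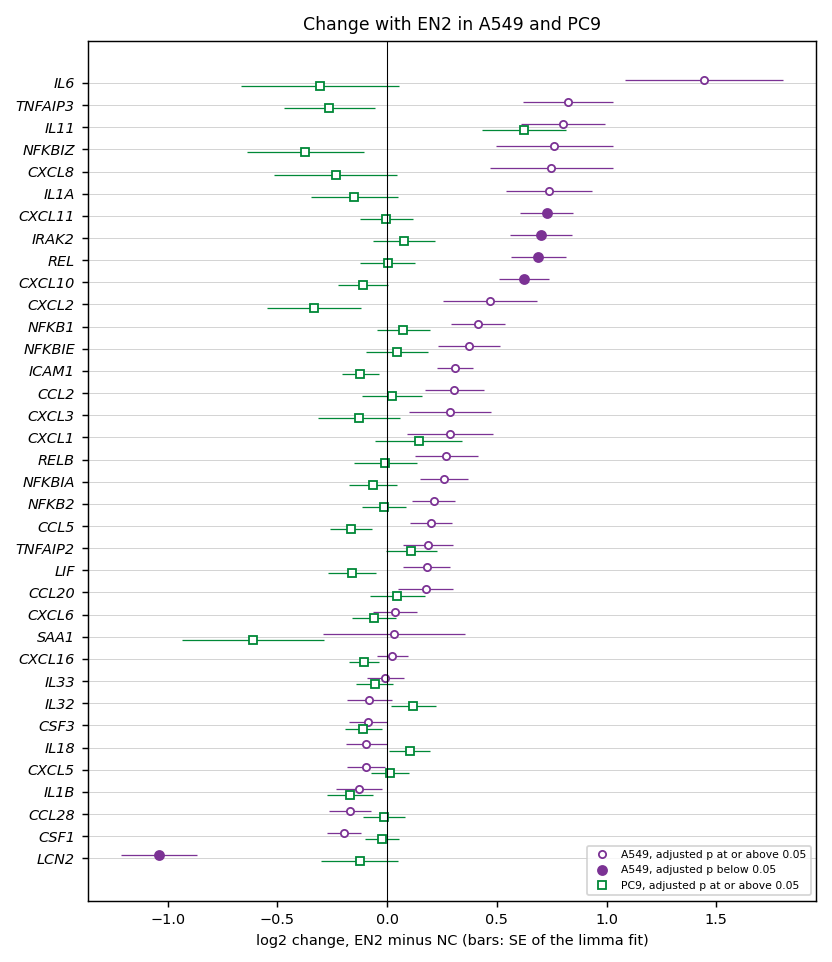
Log2 change with EN2 (horizontal axis, EN2 minus NC) of the 36 genes in A549 (circles) and PC9 (squares), with the SE of the limma fit as bars and filled symbols for genes at an adjusted p below 0.05. In A549, CXCL10, CXCL11, REL and IRAK2 are called above 0 and LCN2 below it, the wide bars of IL6, CXCL8 and NFKBIZ come with larger changes that are not called, and no PC9 symbol is filled.

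The members also differed between replicates of the same A549 group. With NC, 31 of 36 genes were higher on replicate 1 than on replicate 2, beside 51.2% of all genes, and 8 differed by at least 0.5, beside 0.937%. Those 8 were CXCL1, CXCL2, CXCL3, CXCL8, IL1A, IL6, NFKBIZ and TNFAIP3, all higher on replicate 1. With EN2, 29 of 36 were higher on replicate 1, beside 48.0%. In 15 of the 36 genes the arrays stood in the order EN2 replicate 1, EN2 replicate 2, NC replicate 1, NC replicate 2 from high to low, beside 10.3% of all genes. The 18S rRNA signal had exactly the opposite order on these 4 arrays. The difference between 3′ and 5′ probe sets of actin, a sign of RNA quality, had the same order as the 15 genes, at 0.98 and 0.88 on the EN2 arrays and 0.79 and 0.78 on the NC arrays. So did that of GAPDH, at −0.049, −0.063, −0.065 and −0.11, and the part of either in the changes was not tested. CXCL10, CXCL11, REL and IRAK2 were among the 15, and LCN2 was not.

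**Figure D3:**
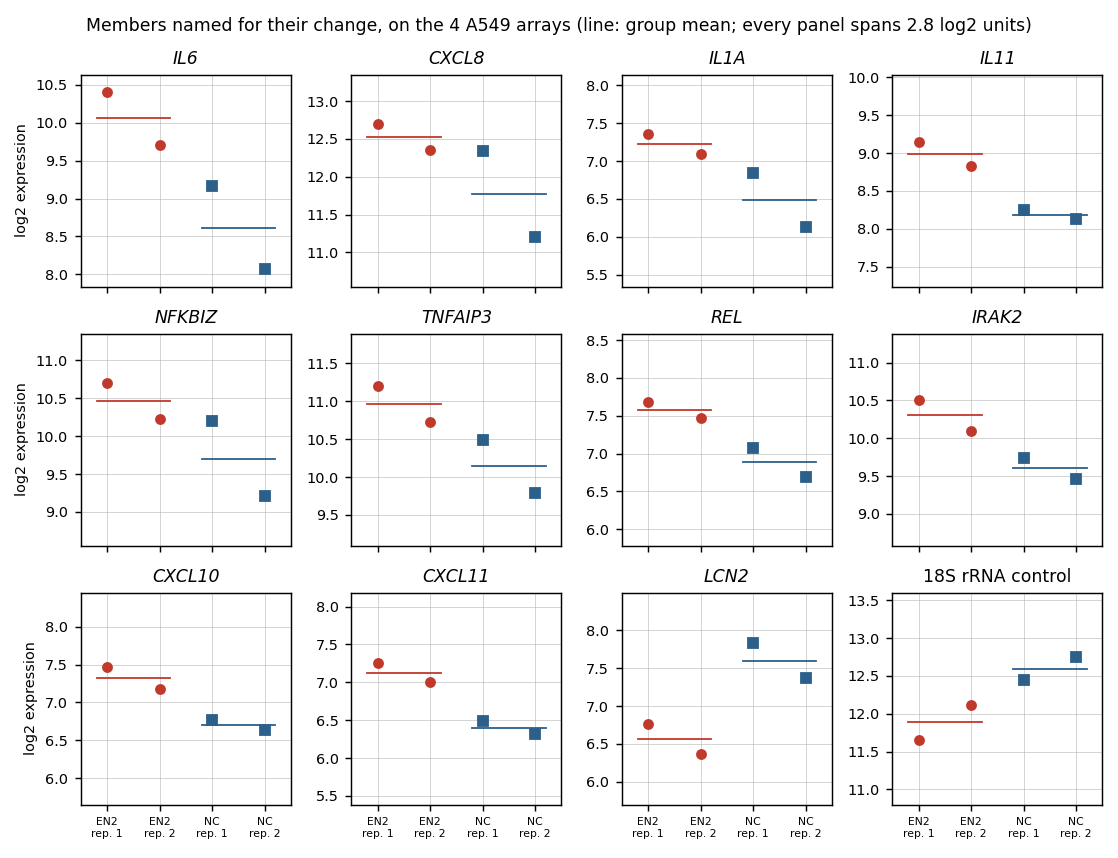
Log2 expression on the 4 A549 arrays of the 11 members named for their A549 change and of the 18S rRNA control, with EN2 arrays as circles, NC arrays as squares, a line at each group mean and 2.8 log2 units on every vertical axis. The first 10 genes are highest on EN2 replicate 1 and lowest on NC replicate 2, whose 18S rRNA signals are 11.66 and 12.74, and LCN2 is higher on the NC arrays.

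A fit that took each array's 18S rRNA signal as a covariate asked how much of the A549 change remained at a given signal. The median of the members went from 0.26 to −0.087, and 25 of the 36 changes were below 0. LCN2 remained the single called gene, at −1.77 ± 0.24 SE (limma adjusted p = 0.0425, and 0.00112 to 0.131 over all alternatives). The changes of CXCL11, REL and CXCL10 were 0.36, 0.21 and 0.23, IRAK2 was at 0.052, and IL6 at −0.075. Of the 10 members with a change of at least 0.5, 5 were above 0 in this fit and 5 below, the latter being IL6, IL1A, CXCL8, NFKBIZ and TNFAIP3. Since the signal itself separates the A549 EN2 arrays from the NC arrays, its part and that of EN2 cannot be told apart here. The introduced gene EN2 lost its own A549 call in this fit. It also lost the call when the A549 arrays at both ends of that signal were dropped. The SE grew with the covariate for CXCL10 (0.11 to 0.20), CXCL11, REL, IRAK2 (0.14 to 0.16) and LCN2. A lost call in this fit therefore does not show that a change is absent.

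Without EN2 replicate 1, which had the lowest 18S rRNA signal of the A549 arrays, LCN2 alone was called (−1.24). Without NC replicate 2, which had the highest, LCN2 alone was called as well (−1.27). Without both of these arrays no member was called, the median change of the members was 0.016, and LCN2 stood at −1.47 (limma adjusted p = 0.0521). Without NC replicate 1, 11 members were called, with IL6, IL1A, CXCL2, CXCL8, NFKBIZ and TNFAIP3 among the additional ones.

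**Figure D4:**
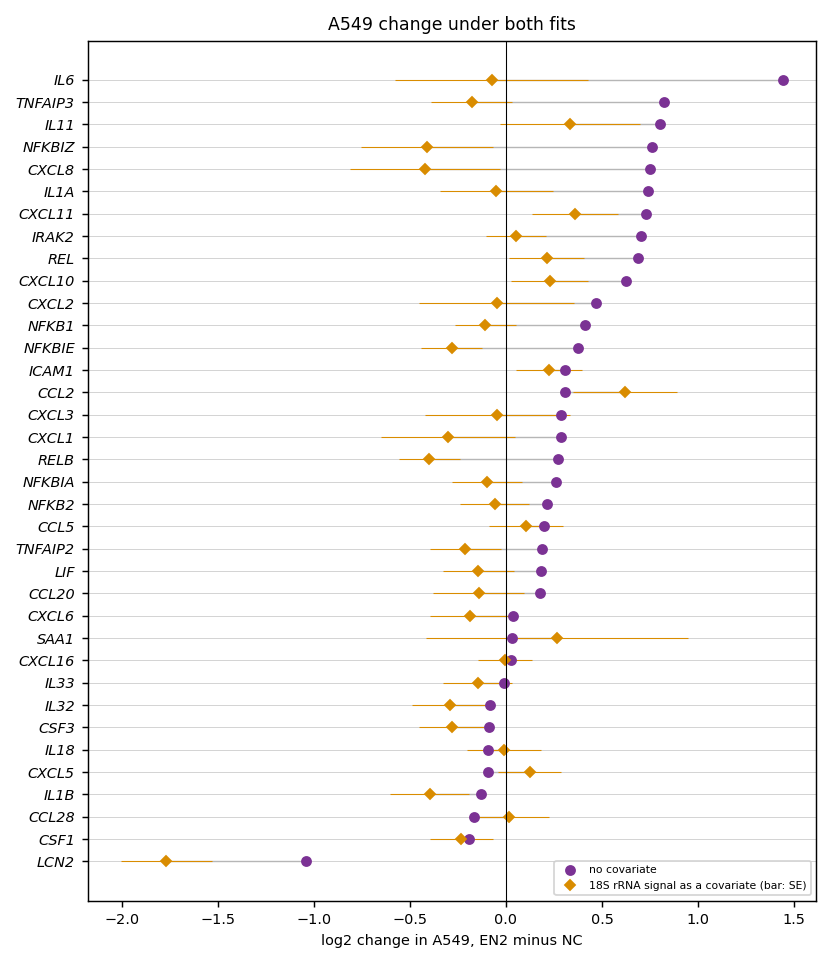
Log2 change in A549 (horizontal axis, EN2 minus NC) of the 36 genes in the fit without a covariate (circles) and in that adjusted for the 18S rRNA signal (diamonds, SE as bars). Most diamonds lie left of their circles, with the median going from 0.26 to −0.087, and LCN2 moves farther below 0, from −1.04 to −1.77.

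In PC9 none of the 36 genes was called by limma at an adjusted p below 0.05, beside 0.367% of all genes, and 1 had an unadjusted p below 0.05, beside 6.75%. That gene was IL11, which read 6.78 and 6.25 with EN2 and 6.12 and 5.67 with NC. Both EN2 arrays were above both NC arrays by a small margin, and the change was 0.62 ± 0.19 SE (limma adjusted p = 0.433). The median change of the members was −0.059 and that of all genes 0.0040. Both EN2 arrays lay below both NC arrays in 9 members, beside 15.2% of all genes, and above in 2, IL11 and NFKBIE, beside 17.7%. The 9 were CXCL2, CXCL8, CXCL16, IL1A, IL1B, CSF3, NFKBIZ, TNFAIP3 and ICAM1.

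Apart from IL11, the genes with the largest changes in A549 had small changes or changes below 0 in PC9. IL6 read 5.85 and 5.04 with EN2 and 5.78 and 5.73 with NC (−0.31), and CXCL8 read 10.00 and 9.86 against 10.18 and 10.14 (−0.23). NFKBIZ read 8.42 and 8.41 against 8.65 and 8.93 (−0.37), and TNFAIP3 read 7.82 and 7.71 against 8.08 and 7.97 (−0.26). The EN2 arrays of CXCL8, NFKBIZ and TNFAIP3 were all below the NC arrays. CXCL10 was close to background (4.03 to 4.26) and CXCL11 below it, where a change cannot be read. REL (0.0029) and IRAK2 (0.078) were near 0, and LCN2 read 12.92 and 12.60 with EN2 and 12.80 and 12.97 with NC (−0.13), with overlapping arrays.

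SAA1 had the lowest PC9 change, −0.61, and it rested on a single array. The EN2 arrays read 6.49 and 6.52 and NC replicate 1 read 6.44, whereas NC replicate 2 read 7.79. The 2 probe sets shared by SAA1 and SAA2 were also highest on that array, at 8.46 and 6.26 against at most 7.05 and 5.22 on the other PC9 arrays. Without NC replicate 2 the change was 0.067. Without NC replicate 1 it was −1.29 and called (limma adjusted p = 0.00769).

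Whether the change with EN2 differed between A549 and PC9 was tested as the difference of the 2 changes. No member passed limma's test, beside 0.784% of all genes, and 13 of 36 had an unadjusted p below 0.05, beside 11.9%. IL6 had the largest difference, 1.75, followed by NFKBIZ at 1.13, TNFAIP3 at 1.09 and CXCL8 at 0.98, all higher in A549. With the 18S rRNA covariate these were 0.27 for IL6, −0.0047 for NFKBIZ, 0.11 for TNFAIP3 and −0.16 for CXCL8, and the median difference of the members went from 0.30 to −0.017. The differences of the genes called in A549 were 0.73 for CXCL10, 0.69 for REL, 0.62 for IRAK2 and −0.91 for LCN2. That of CXCL11 cannot be read, since it was below background in PC9. The smallest limma adjusted p among the members was 0.0975, for CXCL10. In PC9 that gene was close to background (4.03 to 4.26), so its difference rests mainly on A549. IL11 was higher with EN2 by a like amount in both lines, and its difference of 0.18 was within its error. Its other probe sets gave smaller changes, of 0.39 and 0.29 in A549 and 0.27 and 0.36 in PC9.

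The wider pathway was read from lists of genes that are not members. Among the 28 measured genes of signalling upstream of NF-kB, MAP3K14 rose in A549 and none was called in PC9. MAP3K14 encodes NIK, the kinase that starts the noncanonical pathway through NFKB2 and RELB. It read 8.45 and 8.46 with EN2 and 7.67 and 7.68 with NC, so the arrays of a group were almost equal and the groups well apart. In A549 the change was 0.78 ± 0.077 SE (limma adjusted p = 0.000864). The PC9 change was −0.0005, and the difference between the lines passed as well (0.78, limma adjusted p = 0.0149). With the 18S rRNA covariate the A549 change was still 0.78 but not called (limma adjusted p = 0.191, and 0.000582 to 0.191 over all alternatives). Without both outer A549 arrays of that signal it was 0.79 and not called either. The call of the difference ended with the mean of the probe sets (0.47) and when any 1 of 5 arrays was left out: A549 EN2 replicate 1, A549 NC replicate 2, both PC9 EN2 arrays and PC9 NC replicate 1. RELA, the main NF-kB activator subunit, had a change of 0.19 in A549 and was not called.

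Of 25 receptors for these ligands, LIFR, the receptor of LIF, rose in A549 (0.60, limma adjusted p = 0.0325) and none was called in PC9. Of 23 other NF-kB targets, BCL2A1, an antiapoptotic BCL2 relative (0.72), and VCAM1, an adhesion molecule (0.63), rose in A549, and GADD45B, a stress-response gene, fell (−0.59). Their limma adjusted p-values were 0.0291, 0.0469 and 0.0021. In PC9 the one called target was PTGS2, which encodes the prostaglandin enzyme COX-2 and read 7.88 and 7.56 with EN2 against 6.55 and 6.58 with NC (1.15 ± 0.16 SE, limma adjusted p = 0.0166). Of 20 other chemokines and cytokines, CCL3 rose in A549, from 7.51 and 6.85 with NC to 8.57 and 8.07 (1.14, limma adjusted p = 0.0248). Of 10 AP-1 and C/EBP factors, which bind beside NF-kB at many of these genes, FOSL2 rose in A549 (0.64, limma adjusted p = 0.0298). With the 18S rRNA covariate the changes of BCL2A1 (0.92) and GADD45B (−0.66) were as large but not called. Those of LIFR (0.23), VCAM1 (0.18), CCL3 (0.16) and FOSL2 (0.13) were smaller and not called. Those of LIFR, CCL3, FOSL2 and VCAM1 ended without A549 EN2 replicate 1 and without A549 NC replicate 2. The VCAM1 and BCL2A1 calls ended without A549 NC replicate 1, those of BCL2A1 and LIFR without A549 EN2 replicate 2, and that of BCL2A1 also without EN2 replicate 1. The calls of LIFR, BCL2A1, VCAM1, FOSL2 and PTGS2 ended when any single PC9 array was left out, and that of CCL3 when either PC9 EN2 array was. GADD45B stayed called without each array in turn, but not without both outer A549 arrays of the 18S rRNA signal. The A549 calls of LIFR, BCL2A1, VCAM1, CCL3 and FOSL2 ended there too. With the mean of probe sets, the calls of LIFR, BCL2A1 and PTGS2 ended.

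Markers of other cell types that secrete these proteins were read in the same way. None of 5 leukocyte, 3 fibroblast and 3 endothelial markers was called in either line. The mean level of the leukocyte list was 5.52 to 5.54 on the A549 EN2 arrays and 5.50 to 5.56 on the A549 NC arrays. The epithelial markers EPCAM, CDH1, KRT18 and KRT19 fell in A549, 4 of 6, and none of 6 was called in PC9. The call of KRT18 (−0.20) ended under 14 of 19 alternatives, the 18S rRNA covariate among them. With that covariate CDH1 (−0.98), EPCAM (−0.63) and KRT19 (−0.54) were not called either, and CDH1 and KRT19 were also not called without both outer A549 arrays. The mean of that list was 10.11 to 10.19 with EN2 and 10.62 to 10.66 with NC in A549, and its part in the changes of the module was not tested.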

How the data were processed

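The authors deposited log2 expression values for 49495 probe sets on 8 arrays, which the submitters' processing notes give as summarised by RMA. Its version is not given in the sources used here, nor is whether both lines were normalised together. Names came from the array annotation (45284 probe sets carried 1 symbol, 1333 several and 2878 none; 45214 matched RefSeq by Entrez identifier), and the brightest probe set with a single symbol stood for each of 18244 genes. No filter on dim genes was applied.

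Genes were fitted over all 8 arrays with a mean per group, 4 residual degrees of freedom and an intensity trend in limma 3.58.1 (R 4.3.3). Tests were two-sided with Benjamini-Hochberg adjustment over all genes and a threshold of 0.05; with 2 arrays against 2, exact permutation gives no p below 0.333. A change is EN2 minus NC. The fit was also run on simulated data with independent noise on each array. Such noise holds no shift shared across genes, so that run does not bear on the order of the A549 arrays. The number of arrays limits the precision.

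The members, lists and tests were chosen with earlier results of these data known. Named members were those called, those with a change of at least 0.5 and no overlap between groups, the 6 highest and 6 lowest differences between NC lines, and the CXCL cluster, IL6 and NFKBIA in any case. In other lists, called genes were named. TNFAIP2, NFKB2, NFKBIE, IL33, CSF3 and RELA were named after their values were seen. The alternatives were other priors, brighter genes alone, quantile normalisation, median centring, the mean of probe sets, each probe set tested, the arrays of each line by themselves, a block for the replicate number, the 18S rRNA covariate and leaving out arrays.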

Additional observations from a re-analysis of the deposited data

Results flagged for a closer look

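The difference between the lines in the change with EN2 passed limma's test for 4 genes of the lists read beside the module, and for none of its members. MAP3K14, the noncanonical NF-kB kinase, had a change that was 0.78 higher in A549 than in PC9. For the epithelial genes EPCAM, CDH1 and KRT19 the A549 change was lower than that in PC9, by −0.71, −1.13 and −0.65 on the log2 scale. In these 4 genes the PC9 change was −0.060 to 0.011. With the 18S rRNA covariate the differences were 0.78 for MAP3K14, −0.57 for EPCAM, −0.996 for CDH1 and −0.49 for KRT19, and none was called. Without both outer A549 arrays of that signal none was called either. The EPCAM call also ended without A549 EN2 replicate 1, without A549 NC replicate 2 and without any single PC9 array. That of KRT19 ended with a constant prior and without each array in turn except A549 NC replicate 1 and PC9 NC replicate 2, and that of CDH1 without PC9 EN2 replicate 1.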

How the results depend on the processing

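Of the members called in A549, CXCL10 and CXCL11 were not among the 26 brighter ones, where REL, IRAK2 and LCN2 stayed called. With 5 called members in A549, the count stayed at 5 with other priors, quantile normalisation, median centring, the mean of probe sets (where ICAM1 was called in place of IRAK2) and each probe set tested. It was 3 among the 26 brighter members (fewer genes tested), 0 with the arrays of A549 alone (fewer samples), 1 with the 18S rRNA covariate, 0 without both outer A549 arrays of that signal, and 1 to 11 with an array left out. The count in PC9 was 0 to 1 and that of the difference 0 to 4 with an array left out, and the mean of probe sets gave 1 called difference (ICAM1). The NC comparison gave 31 to 36 called of 36 where all members were tested and 26 of 26 among the brighter genes. With the replicate number as a block the counts were 13 in A549, 1 in PC9 (IL11) and 10 for the difference. Deviations of same-numbered arrays correlated at 0.349 in A549 and 0.066 in PC9, and with 2 pairs a line the numbers are not taken to pair the arrays. The median A549 change of 0.26 was −0.087 with the covariate, 0.016 without both outer arrays and 0.093 to 0.39 with an array left out; that of PC9 was −0.078 to −0.022. The 18S rRNA covariate was not run for the NC comparison, since the signal differs far more between the lines than within them. Where leaving out an array leaves its group with 1, that array is taken to vary as those elsewhere do.

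With the covariate, 20 of the 36 A549 changes turned sign, among the named genes those of CXCL1 (−0.30), CXCL2 (−0.049), CXCL3 (−0.046), CXCL5 (0.12), CXCL6 (−0.19), CXCL8 (−0.42), IL1A (−0.050), IL6 (−0.075), NFKBIA (−0.0997), NFKBIZ (−0.41) and TNFAIP3 (−0.18). Of the differences given above, those of CXCL8 (−0.16), IL11 (−0.28), IRAK2 (−0.0075) and NFKBIZ (−0.0047) turned, as did the PC9 change of REL (−0.011). Without both outer arrays CXCL1 (−0.12), CXCL5 (0.019), CXCL6 (−0.11) and the IL11 difference (−0.041) turned. With the mean of probe sets the PC9 changes of CXCL5 (−0.0045), REL (−0.048) and CXCL11 (0.053) turned, and CXCL11 also with median centring (0.0004). With an array left out, A549 changes ran from −0.022 to 0.59 for CXCL1, −0.047 to 0.62 for CXCL3 and −0.10 to 0.17 for CXCL6. In PC9 they ran from −0.092 to 0.38 for CXCL1, −0.13 to 0.12 for CXCL11, −0.27 to 0.015 for CXCL3, −0.045 to 0.072 for CXCL5, −0.72 to 0.10 for IL6, −0.29 to 0.037 for LCN2, −0.16 to 0.038 for NFKBIA, −0.015 to 0.021 for REL and −1.29 to 0.067 for SAA1. The IL11 difference ran from −0.082 to 0.44. None of these genes was called in that comparison as reported, and the cause was not tested.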
